A study of Mus musculus with 24 samples.

Results

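The untreated animals of the study were 7 mice labelled Control, out of 24 mice in the series. They were 4 males (replicates 1 to 4) and 3 females (replicates 5 to 7) of the C57BL/6 strain, taken at week 7 of life. They were chosen by the treatment label alone, and no measured value entered the choice. Control litters drank non-acidified water without tylosin, the macrolide antibiotic given to the other mice of the study. Expression of 547 genes was measured in the terminal ileum with the NanoString nCounter GX mouse immunology panel, which counts 1 colour-coded probe pair per transcript in total RNA without amplification. Litters were weaned into cages by sex and treatment, so that cage and sex cannot be told apart here, and litter was not given in the labels. The values describe 1 strain at 1 age.

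The ileum is lined by a single layer of epithelium that absorbs nutrients, secretes mucus and lectins, and carries IgA made by plasma cells into the lumen. Beneath and within this layer lie T cells, macrophages and, in Peyer's patches and smaller follicles, B cells. MHC class I molecules are carried by nearly all nucleated cells and present peptides from inside the cell. MHC class II molecules present peptides from outside the cell, and in the small intestine they are found on epithelial cells as well as on professional antigen-presenting cells.

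Several of the most abundant transcripts encoded these presentation molecules, and 4 of their promoters are shown because they share a short element found near the start sites of MHC genes. Each sequence is the 150 bases before the RefSeq start site in build GRCm38.p6, written 5′ to 3′ on the strand of the gene, with capitals marking GATTGG, or CCAATC where the same letters lay on the other strand. B2m, the light chain of MHC class I, lies on the plus strand at chr2:122147537-122147686. The class II genes are H2-Aa on the minus strand at chr17:34287824-34287973, H2-Eb1 on the plus strand at chr17:34305717-34305866 and H2-Ob on the plus strand at chr17:34238755-34238904.
B2m: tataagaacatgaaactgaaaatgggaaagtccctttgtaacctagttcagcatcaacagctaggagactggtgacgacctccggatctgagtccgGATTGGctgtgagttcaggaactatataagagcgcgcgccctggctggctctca
H2-Aa: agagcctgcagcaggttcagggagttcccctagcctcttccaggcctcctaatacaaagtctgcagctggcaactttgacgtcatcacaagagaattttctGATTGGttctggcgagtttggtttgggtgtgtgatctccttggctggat
H2-Eb1: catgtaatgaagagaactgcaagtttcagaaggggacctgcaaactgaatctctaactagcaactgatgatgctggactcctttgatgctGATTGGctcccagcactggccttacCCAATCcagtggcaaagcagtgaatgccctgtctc
H2-Ob: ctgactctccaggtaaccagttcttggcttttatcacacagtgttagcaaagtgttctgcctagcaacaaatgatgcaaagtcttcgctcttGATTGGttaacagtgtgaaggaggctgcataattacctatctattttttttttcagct

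The letters GATTGG, searched on both strands, were present in 7 of the 15 promoter windows (46.7%) that RefSeq gave for 13 of the 19 genes on the class I and class II lists. Of all 32851 promoter windows of the same length, 3595 (10.9%) held them. It was found at genes of high and of low level. H2-Aa, with a mean of 14.14 on the log2 scale of normalised counts, carried it, and so did H2-Ob, an inhibitor of peptide loading, with a mean of 5.34. H2-DMa, which helps to load peptides and had a mean of 10.74, had no match in either of its windows.

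The Control samples held between 445534 counts (replicate 1) and 750256 counts (replicate 5). The deposited values are log2 of the count divided by the size factor of the sample, termed the normalised count, and size factors ranged from 0.744 in replicate 1 to 1.42 in replicate 4. A count of 0 was held as a value of 0, the same as a normalised count of 1. This enters the means and SDs of Il5, Il2, Masp2 and Camp. Spearman correlations between mice, taken across genes, ranged from 0.966 to 0.988. Every pair of mice differed by far more than counting error (chi-square of 17.2 to 102 per degree of freedom over genes), so no library was present more than 1 time. A replicate number is only a name, and the p-values below treat the mice as independent.

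Markers of the labelled tissue were present. Pigr, Itln1, Ccl25 and Btnl1, the measured markers of small intestinal epithelium, had means from 11.35 to 15.65. Liver markers C8a, C8b, C9, Masp1 and Mbl2 had medians of 5 to 15 counts, while C4bp, which is also counted among them, had a median of 150. The neutrophil markers S100a8 and S100a9 had medians of 21 and 20 counts. The lymph node markers Ccl19 and Ccr7 had medians of 35 and 32 counts.

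Counts were concentrated in few genes. The 5 most abundant genes, Itln1, Pigr, B2m, Cd74 and Ceacam1, held 38.7% ± 2.25 (SD, n = 7) of the counts of a mouse, and the 20 most abundant held 60.1% ± 2.97 (SD, n = 7). Only 11 genes were needed to reach 50% of all counts, whereas the genes under the median level together held 2.18% ± 0.491 (SD, n = 7). Of 547 genes, 89 (16.3%) had a median of at least 1000 counts. Since each transcript has its own probe pair and pairs hybridize with different efficiency, the order between genes is approximate.

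**Figure D1:**
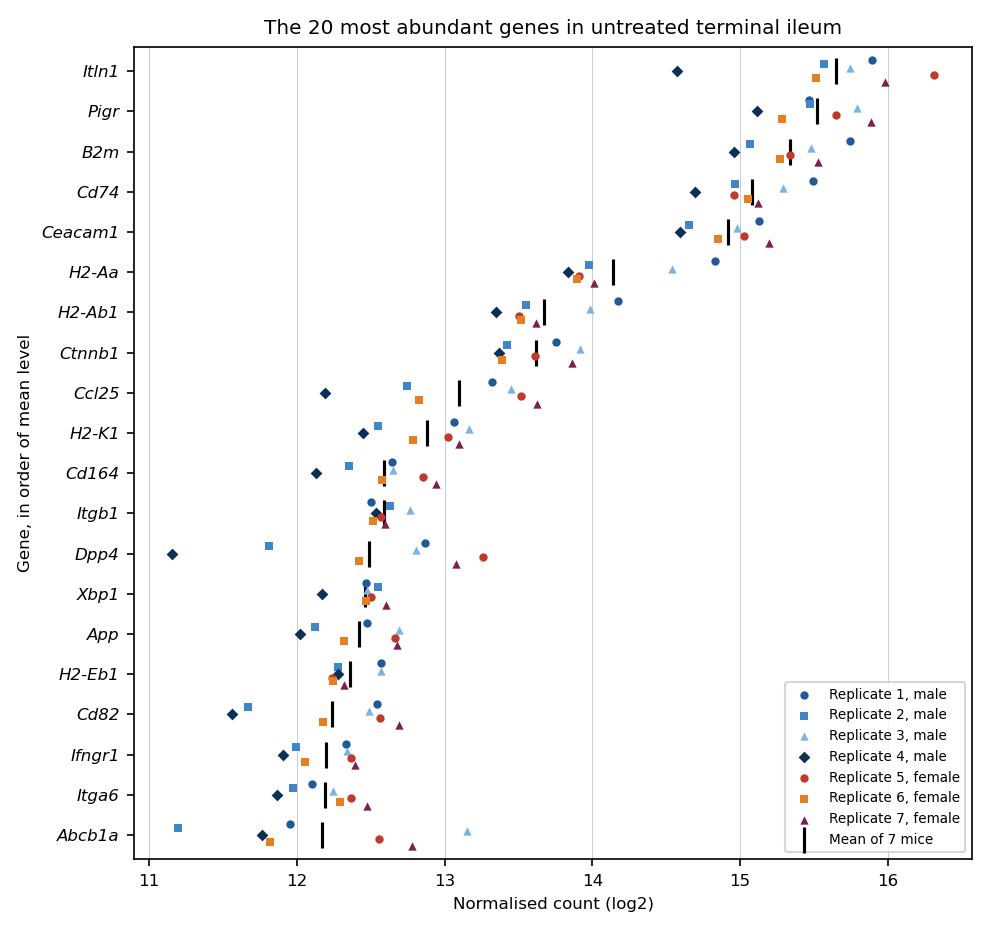
Levels of the 20 most abundant genes in each of the 7 Control mice, as log2 normalised counts on the x axis, with genes ordered by their mean (black bar). Points are single mice, blue shades for males and red, orange and purple for females. Itln1 led with a mean of 15.65, and replicate 4 (dark diamond) was the lowest mouse for most of these genes, whereas all 7 mice lay close together for Itgb1.

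Itln1, intelectin 1, a lectin secreted by goblet and Paneth cells that binds microbial sugars, was the most abundant gene, at 9.86% ± 2.34 of counts (SD, n = 7). Its normalised counts ranged from 24333 in replicate 4 through a median of 54867 to 81296 in replicate 5. Pigr, the receptor that carries polymeric IgA across the epithelium, followed with 8.81% ± 0.886 of counts and normalised counts from 35530 to 60425 (median 45400). Itln1 exceeded Pigr in 5 of 7 mice, with a mean difference of 0.13 ± 0.38 on the log2 scale (SD, n = 7), so their order did not hold beyond the spread between mice. Ceacam1, an adhesion molecule of the epithelial surface, ranged from 24664 through 32326 to 37541 normalised counts. Further epithelial genes among the top 20 were Ccl25 (13.10 ± 0.52, mean log2 ± SD), the chemokine that draws CCR9+ lymphocytes to the small intestine, and Dpp4 (12.49 ± 0.75), a peptidase of the enterocyte brush border. Abcb1a, the drug efflux pump of the apical membrane, closed the top 20 at 12.17 ± 0.68.

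Antigen presentation filled many of the next places. B2m had normalised counts from 31794 through 41317 to 54737. Cd74, the invariant chain that guards the class II groove, ranged from 26499 through 34027 to 46068, and B2m exceeded it in 7 of 7 mice. The class II chains themselves followed in a fixed order, H2-Aa (14.14 ± 0.38, SD, n = 7) above H2-Ab1 (13.67 ± 0.30) in 7 of 7 mice, with H2-Eb1 at 12.36 ± 0.15. H2-K1, a classical class I heavy chain, stood at 12.88 ± 0.29. Thus 5 of the 9 class II genes measured and 7 of the 10 genes on the class I presentation list had medians of at least 1000 counts, against 89 of 547 genes in all. These 7 included the proteasome subunits Psmb5 and Psmb7, with medians of 2415 and 2475 counts. The lowest class II gene was H2-Ea-ps (current symbol H2-Ea), with 9 to 23 counts. C57BL/6 mice carry a haplotype that does not express the E alpha chain, so a gene without expected transcript read 14 counts at the median. Whether counts near this level are background was not tested, but 79 genes had a lower mean than H2-Ea-ps.

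The remaining genes of the top 20 were adhesion, stress and cytokine receptor genes. Ctnnb1, beta-catenin of cell junctions and Wnt signalling, was the highest of them at 13.62 ± 0.23 and exceeded Ccl25 in 7 of 7 mice. Cd164, Itgb1, App, Cd82 and Itga6, all membrane proteins, had means from 12.19 to 12.59. Xbp1, the transcription factor of the secretory programme in plasma, Paneth and goblet cells, stood at 12.46 ± 0.14. Ifngr1, the ligand-binding chain of the interferon gamma receptor, stood at 12.20 ± 0.20. From Cd164 downward, no gene exceeded the next in more than 5 of 7 mice, so the lower part of this order was not resolved.

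Levels of the gene lists differed widely, and each list is given beside the median over all 547 genes of 6.99. The epithelial list had a median level of 11.76 over 12 genes, class II 10.74 over 9 and class I 10.28 over 10. JAK-STAT and NF-kB signalling genes (8.97, 25 genes), interferon genes (8.50, 27 genes) and pattern recognition genes (8.17, 16 genes) also stood above the panel. Stat3 (11.18 ± 0.19), Irf1 (12.17 ± 0.23), an interferon-induced transcription factor, and Irak4 (10.58 ± 0.24), a kinase below Toll-like receptors, were high members of these lists. The interferons themselves were low members of the interferon list, with medians of 10 counts for Ifng, 9 for Ifna2 and 7 for Ifnb1 and Ifna1. Toll-like receptors ranged from Tlr1 at 8.58 to Tlr5, the flagellin receptor, at 5.06, and Nod2, a sensor of bacterial cell wall fragments, was the lowest member of the pattern recognition list at 4.49.

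The T cell list (6.02), the cytotoxic and NK list (6.02) and the B cell list (5.40) had median levels below that of the panel, and the plasma cell and IgA list (7.08) lay slightly above it. Of the T cell genes, Cd7 (7.89 ± 0.34), Lck (7.59 ± 0.17) and Cd3d (7.39 ± 0.22) were the highest and Cd8b1 (3.39 ± 0.42) was the lowest. This list held Cd3eap, which despite its name encodes a subunit of RNA polymerase I. Cd8a (7.35 ± 0.34) had more counts than Cd4 (6.69 ± 0.28), each with its own probe pair. Among cytotoxic genes, Gzma (10.60 ± 0.52) and the chemokine Ccl5 (10.24 ± 0.44) exceeded 1000 counts at the median, whereas Prf1, perforin, had a median of 25 counts and Ifng of 10. Among B cell genes, Blnk (9.56 ± 0.16), a signalling adaptor, was the highest. Plasma cell and IgA genes included Tnfrsf17, the survival receptor BCMA, at 6.88 ± 0.30 and Il5 at the bottom of the panel.

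Macrophage markers were well measured. Csf1r, the receptor for the macrophage growth factor, stood at 9.18 ± 0.27, Emr1 (F4/80) at 8.51 ± 0.26 and Cx3cr1 at 7.45 ± 0.35. Tyrobp, an adaptor of activating receptors, led the myeloid list at 9.69 ± 0.33, and Clec4e, a receptor for mycobacterial lipid, closed it with a median of 8 counts. Of the chemokines, Ccl25, Ccl6 (10.97 ± 0.27) and Ccl5 were the highest and Ccl26 the lowest (2 to 4 counts in all mice). Of the 28 complement genes, 18 had medians of at least 50 counts, led by C1qbp (11.16 ± 0.15), a mitochondrial protein that can bind C1q, and including C3 (9.70 ± 0.49) and C1qb (9.95 ± 0.33).

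Most secreted interleukin genes lay at the low end of the panel, and their list had a median level of 3.42 against 6.99 for all genes. Of 27 secreted interleukins, 6 had medians of at least 50 counts and 9 had medians under 10. Il18 (9.50 ± 0.66), made by epithelium, was the highest, followed by Il7 (7.16 ± 0.17), Il16 (6.91 ± 0.20) and Il15 (6.83 ± 0.34). Il17a had a median of 19 counts, Il22 of 6 and Il10 of 12. Receptor genes on the type 2 and type 3 lists included Il13ra1 at 10.75 ± 0.30, Il4ra at 10.52 ± 0.14 and Il17ra at 8.05 ± 0.21, but also Il23r at 4.82 ± 0.30. Foxp3, the regulatory T cell factor, had a median of 15 counts. Il17a, Il10 and Foxp3 thus lay near the median of 14 counts of H2-Ea-ps, the gene without expected transcript, and Il22 lay below it. Whether such counts are background was not tested.

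At the low end, 39 of 547 genes (7.13%) had a median under 10 counts and 167 (30.5%) under 50. At least 1 count was recorded in every mouse for 543 genes. The 4 exceptions were Il5, Il2, Masp2 and Camp. Il2, the T cell growth factor, gave 5, 0, 12, 7, 0, 6 and 0 counts in replicates 1 to 7. Il5, which supports eosinophils and B cells, gave 0, 1, 6, 8, 1, 3 and 3 counts, Masp2 0 to 7 and Camp, the cathelicidin precursor, 0 to 10. The other genes among the 10 lowest were Ccl26, Nox3, Klrc3, C9, Rag1 and Klra21, with 1 to 11 counts in any mouse. At these levels, a count of 0 allows up to 3 counts from counting error alone, and the order among these genes was not tested.

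Differences between untreated mice were judged on the 380 genes with a median of at least 50 counts. Their median SD was 0.27 on the log2 scale (quartiles 0.19 and 0.37), and the median gene differed 1.66-fold between its lowest and highest mouse. A range under 1.5-fold was found for 117 genes and of at least 2-fold for 102. Counting error alone would give a median SD of 0.08, and it made up over 50% of the variance for 39 of the 380 genes but for 120 of the 167 genes under that level. Most of the spread among well-measured genes was therefore larger than counting error.

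**Figure D2:**
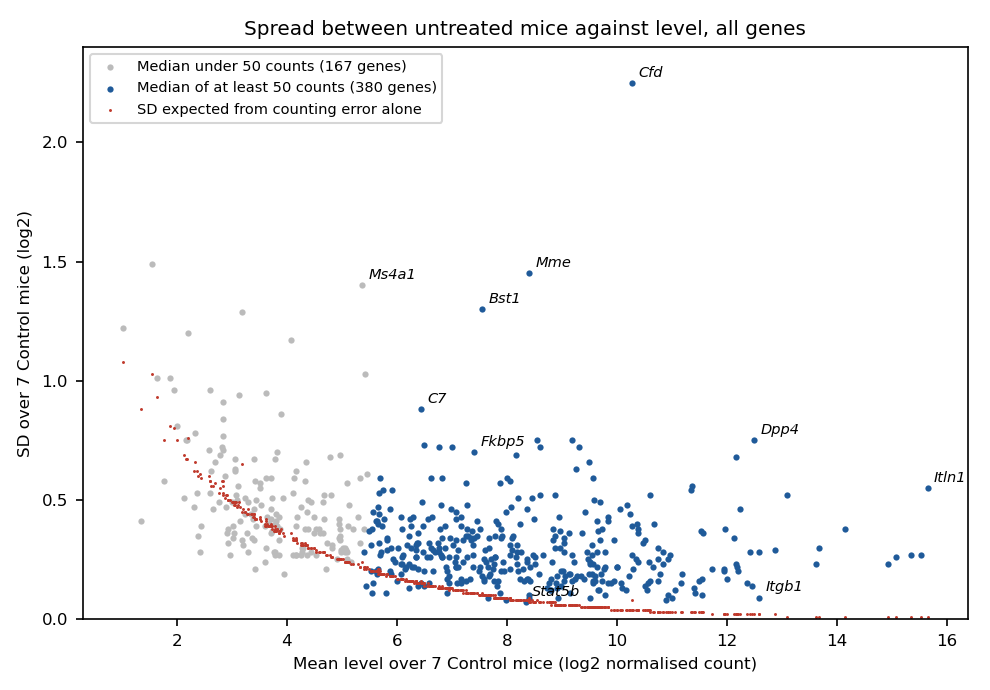
SD over the 7 Control mice on the y axis against mean level on the x axis, both on the log2 scale, for 547 genes. Blue points are the 380 genes with a median of at least 50 counts, grey points the 167 others, and small red points the SD that counting error alone would give. Most blue points lie above the red ones, Cfd stands alone at 2.25, and Stat5b lies on the counting error.

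A range of at least 4-fold was found for 9 genes, namely Cfd, Mme, Bst1, C7, Dpp4, Cd36, Ccl8, Il1rn and Nos2. Without replicate 4, it was found for 4 genes, Cfd, Mme, Bst1 and Cd36, and the median SD was 0.23. Since the 20 most variable genes were ranked on these same values, their spread is given as a description. The 20th gene, Ccr2, had an SD of 0.591 and the 21st, Ptafr, one of 0.588.

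Cfd, complement factor D or adipsin, a protease of the alternative pathway made in quantity by fat cells, varied most (SD 2.25). Its normalised counts in replicates 1 to 7 were 3297, 1102, 1015, 1276, 5371, 3489 and 49.8. Replicate 7 was 108-fold below replicate 5 and lay far from all other mice, and without it the SD was 1.03. Cd36, a fatty acid transporter of fat cells, enterocytes and macrophages, was also lowest in replicate 7 (232) and had 1025, 475, 474, 531, 919 and 868 normalised counts in replicates 1 to 6. The same 3 mice, replicates 1, 5 and 6, were highest for both genes. Pparg, the transcription factor of fat cells, ranged from 110 to 198 normalised counts and was lowest in replicate 2 and highest in replicate 4. It was looked at after the values of Cfd were seen. Whether the tissue taken from each mouse held different amounts of fat was not tested.

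**Figure D3:**
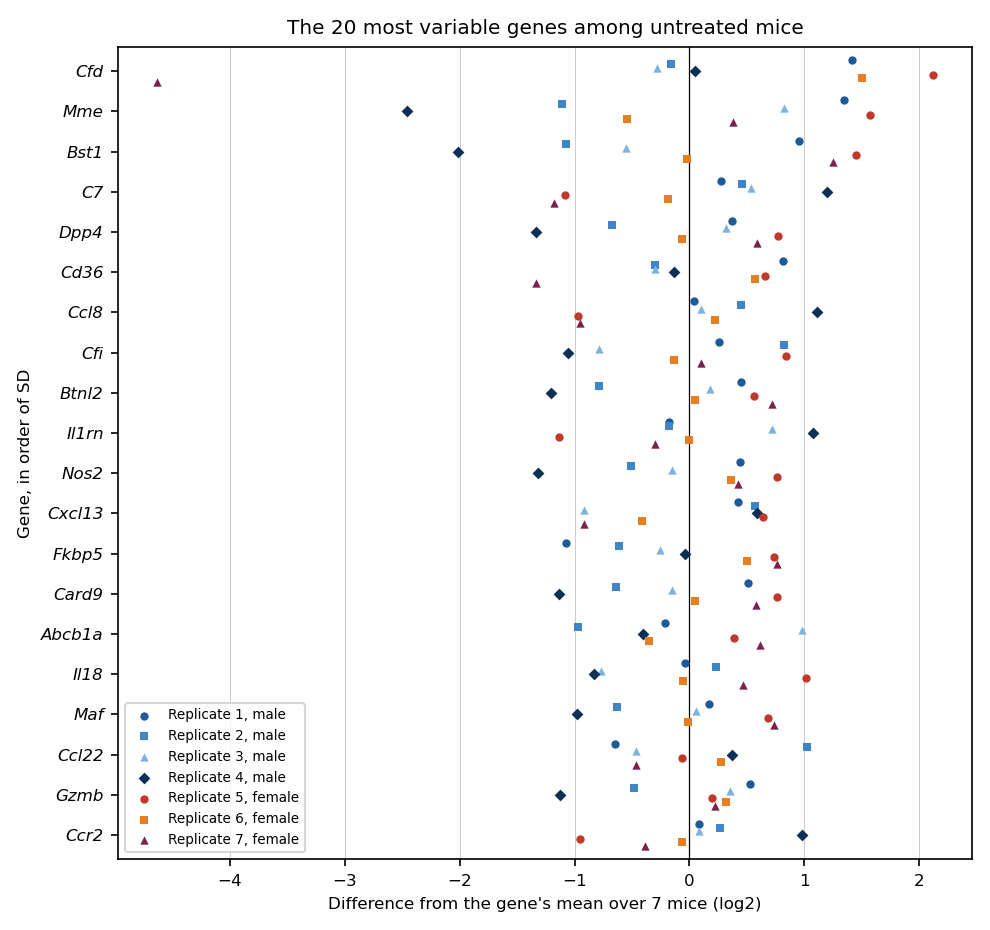
Difference of each Control mouse from the 7-mouse mean on the x axis, in log2 units, for the 20 most variable genes with a median of at least 50 counts, ordered by SD. Points are single mice, blue shades for males and red, orange and purple for females. Replicate 7 lies apart for Cfd, and replicate 4 (dark diamond) is the lowest mouse for 10 genes, among them Mme, Bst1, Dpp4 and Nos2, and the highest for C7, Ccl8, Il1rn and Ccr2.

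Of the 20 most variable genes, 5 (Mme, Dpp4, Btnl2, Abcb1a and Il18) were on the epithelial list. Mme, neprilysin, a membrane peptidase of the brush border and of stromal cells, had 862, 158, 603, 61.9, 1008, 233 and 443 normalised counts in replicates 1 to 7, a 16.3-fold range. Bst1, CD157, an ectoenzyme that is also found on Paneth cells and stroma, had 362, 88.9, 128, 46.4, 512, 185 and 445. Both genes were lowest in replicate 4 and highest in replicate 5. Dpp4 ranged from 2284 through 7176 to 9806 and Btnl2, a butyrophilin-like gene of the enterocyte, from 170 through 443 to 641. Nos2, inducible nitric oxide synthase, ranged from 254 through 816 to 1077, and Il18 from 408 through 703 to 1463. These 6 genes, Bst1 and Nos2 included, were each lowest in replicate 4. Abcb1a was not, and its mean rose most, to 12.34 from 12.17, without replicate 2.

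Over the whole epithelial list, the median SD was 0.55 against 0.27 for all 380 genes, and 10 of its 11 members with at least 50 counts had an SD above that median. Without replicate 4, the list had a median SD of 0.50 against 0.23. Of its 12 members, 9 were lowest in replicate 4, beside 150 of all 547 genes, whereas 6 were highest in replicate 7 and 4 in replicate 5. Against this order, 1 member was highest in replicate 4 and 2 were lowest in replicate 5. The mean difference of the list from its 7-mouse mean was -0.74 in replicate 4 and -0.38 in replicate 2, against 0.40 in replicate 5 and 0.42 in replicate 7. In bulk tissue, fewer epithelial cells and less RNA per cell cannot be told apart. In the same mouse, replicate 4, 9 of 10 genes on the class I list and 16 of 25 JAK-STAT and NF-kB genes were at their lowest. Gzma (737 normalised counts against 1322 to 2054 in the others) and Gzmb (118 against 184 to 372) were also at their lowest there. All these lows were taken with the size factors of the study, the largest of which was that of replicate 4 (1.42). Whether they held with samples scaled to equal totals was not tested.

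Several genes of stromal and myeloid cells were at their highest in replicate 4. C7, a terminal complement component made by stromal cells, had 105, 119, 126, 199, 40.9, 76.3 and 38.3 normalised counts in replicates 1 to 7. Ccl8, a chemokine of resident macrophages, had 382, 507, 398, 803, 190, 434 and 192. Il1rn, the interleukin 1 receptor antagonist, ranged from 58.2 in replicate 5 to 269 in replicate 4, and Ccr2, the receptor of monocytes, from 51.1 to 195 in the same mice. All 4 genes were highest in replicate 4. The myeloid list was above its mean by 0.28 in replicate 2 and 0.27 in replicate 4, and below it in replicate 5, at -0.23.

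A principal component analysis of the 380 genes described the same order. The first component held 53.0% of the variance, with scores of 8.53 in replicate 4 and 4.79 in replicate 2 at one end and -4.07 in replicate 5 and -5.71 in replicate 7 at the other. Without Cfd it held 58.7%. Its strongest genes on the low side in replicate 4 were then Mme, Bst1, Dpp4 and Btnl2, and on the high side C7, Ccl8 and Ccr2. Replicate 4 also had the largest size factor, 1.42, with a total of 591962 counts that was the median of the 7 mice. It was lowest for 131 of the 380 genes (34.5%) and highest for 85 (22.4%). The part of size factor, RNA quality or sampling site in this was not tested.

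**Figure D4:**
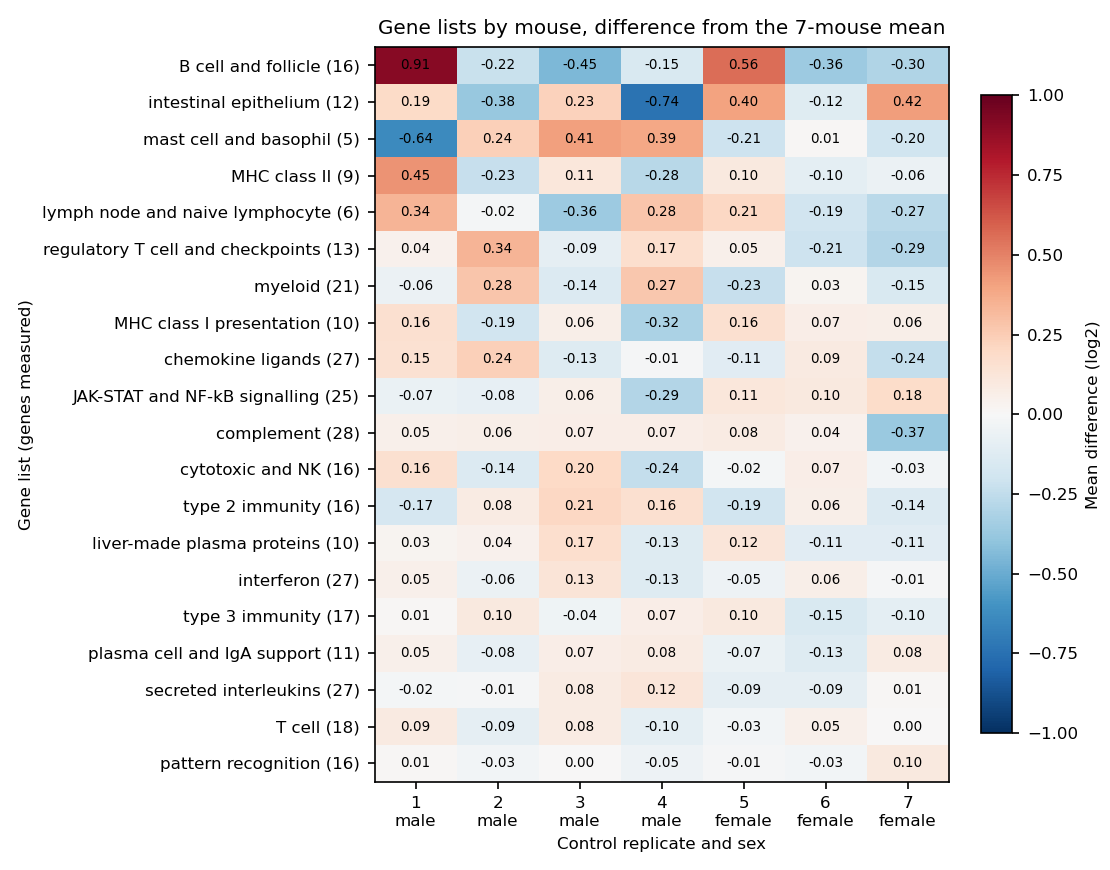
Mean difference of each of 20 gene lists from its 7-mouse mean, in log2 units, for the 7 Control mice (columns) and lists (rows, with the number of genes measured), ordered by range. Red is above and blue below the mean. B cell genes were high in replicates 1 and 5 (0.91 and 0.56) and epithelial genes low in replicate 4 (-0.74). The T cell and pattern recognition lists, as averages over their genes, stayed within 0.10 of their means in all mice. Single genes on them varied more, such as Cd8a (SD 0.34) and Irak2 (SD 0.43).

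B cell genes showed a different pattern. Ms4a1, CD20, had 227, 23.9, 18.9, 35.1, 114, 23.1 and 22.0 normalised counts in replicates 1 to 7, so that replicates 1 and 5 stood above the other mice. Pax5, the B cell identity factor, followed with 64.5 and 42.5 in these mice against 7.98 to 15.6 in the others. Their medians of 29 and 15 counts lay under the level used for the ranking, but their SDs of 1.40 and 1.17 compared with 0.24 and 0.36 expected from counting error. The list as a whole was above its mean by 0.91 in replicate 1, in which 11 of 16 members were highest (92 of all 547 genes were), and by 0.56 in replicate 5. H2-Ob, a class II gene of B cells, was also highest in these 2 mice (64.5 and 77.1 against 26.4 to 40.8). Cxcl13, the chemokine that organizes follicles, did not follow this order, with 145, 161, 57.5, 163, 169, 81.6 and 57.5. T cell genes had a median SD of 0.24, and their list differed from its mean by at most 0.10 in any mouse. Whether the pieces of ileum held different numbers of follicles was not tested.

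Of the 9 class II genes measured, 6 were highest in replicate 1, beside 92 of all 547 genes. H2-Aa had 29070 normalised counts there and 23762 in replicate 3, against 14600 to 16540 in the other mice. Fcer1a, the alpha chain of the mast cell and basophil IgE receptor, was at 1 count in replicate 1 and 10 to 28 counts in the others. Kit, a mast cell marker that other cells of the gut wall share, had 120 counts there against 232 to 339 in the others. These are raw counts, and replicate 1 had the smallest size factor (0.744 against 1.04 to 1.42), so they overstate both gaps. Of the 5 measured genes on the mast cell and basophil list, 2 were lowest and 1 was highest in replicate 1. The complement list was below its mean by -0.37 in replicate 7, or by -0.21 without Cfd, and 10 of its 28 members were lowest there, beside 100 of all 547 genes.

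The least variable genes had mixed roles. Stat5b, a transcription factor of cytokine receptors, had the smallest SD at 0.07, with normalised counts from 298 through 325 to 351. The other 9 were Ctsc (cathepsin C), Traf2, Il2rb (a receptor chain for interleukins 2 and 15), Rela (a subunit of NF-kB), Rae1, Bax, Itgb1, Psmb5 and Cd81, with SDs from 0.08 to 0.10. Itgb1, the beta 1 integrin, kept within 1.20-fold at a level of 5794 to 6965. For Stat5b, Traf2 and Il2rb, the spread was no larger than counting error would give. Their stability is relative to the size factors of the study. With samples scaled to equal totals, Stat5b had an SD of 0.25 and Itgb1 of 0.20, and the SDs of all 10 genes were at least 0.14. With quantile normalization, Itgb1 had an SD of 0.30 and Cd81 of 0.23, beside a median of 0.24 for the 380 genes. Pattern recognition genes varied little as a list (median SD 0.20), with Traf6 and Myd88, adaptors below Toll-like receptors, at 0.12 each, whereas chemokine ligands (0.40) and complement genes (0.39) varied more than the median gene.

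Males and females were compared because sex was the only label that divided the untreated mice. By limma, 0 of 547 genes (0%) differed at an adjusted p under 0.05, and the smallest adjusted p was 0.472. An unadjusted p under 0.05 was found for 37 genes (6.76%), of which 17 were higher in females and 20 in males. With weights from voom 0 genes were called, and 38 had an unadjusted p under 0.05. The ranges of the sexes did not overlap for 41 of 547 genes (7.50%), with females higher for 21. With 4 males and 3 females, some ranges fail to overlap by chance alone, and that share was not calculated. The absolute difference between the sexes had a median of 0.22 over all genes. These results do not show that the sexes had equal levels.

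The genes with the smallest p-values are given with their values in each mouse. Fkbp5, a cochaperone that glucocorticoids induce, had 80.7, 111, 142 and 166 normalised counts in the males and 284, 240 and 289 in the females, without overlap. Its female minus male difference was 1.16 on the log2 scale (95% interval 0.58 to 1.75; limma adjusted p = 0.472). Stat2, a transducer of interferon signals, had 172, 166, 191 and 161 in males and 251, 223 and 300 in females, a difference of 0.57 (0.19 to 0.95; limma adjusted p = 0.644). Tnfrsf9, the costimulator 4-1BB, differed by 0.69 but had only 6 to 21 counts.

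In the other direction, C7 had 105, 119, 126 and 199 normalised counts in males and 40.9, 76.3 and 38.3 in females, a female minus male difference of -1.43 (-2.14 to -0.72; limma adjusted p = 0.472). The highest mouse was replicate 4, and the 3 other males also lay above all females. Ptafr, the receptor for platelet-activating factor, had 49.7, 62.6, 61.8 and 105 in males and 40.1, 40.8 and 29.7 in females, with a difference of -0.88. Il12b, the shared subunit of interleukins 12 and 23, differed by -0.89 at 8 to 29 counts. None of the 6 differences passed correction over the panel. Within sexes, the SD of Fkbp5 fell to 0.36 from 0.70 and that of C7 to 0.47 from 0.88, while the median SD of the 380 genes was 0.25 against 0.27. Both genes were picked for their small p-values for sex in these same values, so this fall adds no support for a difference.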

How the data were processed

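Gene expression in the terminal ileum was measured with the nCounter GX mouse immunology panel. The authors normalized counts with DESeq2 (version not given in the sources used here) over all 24 samples and deposited log2 values. Raising 2 to these values and multiplying by the size factor recovered for each sample gave whole counts, within 0.01, for 100% of the values above 0 counts. These recovered counts were used for totals, shares and counting error. Background subtraction was not stated. Labels name TRIzol and a column, and the methods name a Qiagen kit, for extraction.

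Only the 7 Control samples were analysed. Means and SDs were taken over mice on the deposited log2 scale. Spread was ranked among genes with a median of at least 50 counts. The expected counting SD assumed Poisson counts. Female minus male was tested with limma 3.58.1 (lmFit and eBayes, R 4.3.3, no covariates, Benjamini-Hochberg over 547 genes, threshold 0.05), after a test on simulated data. Python 3.11.15, numpy 2.4.6 and pandas 2.3.3 were used for the rest. Alternatives comprised other scalings, filters and leaving out each mouse. The labels gave no batch. Promoters were from RefSeq, GRCm38.p6. Of 547 symbols, 531 were current and 14 were synonyms there.

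Genes named were the 20 most abundant, all with a 0 count and the 10 lowest, the 20 most and 10 least variable, the 3 smallest p-values for sex in each direction, the cell type markers and, for each of 20 gene lists, the 3 most abundant, the lowest and the most variable member. Other list members and Pparg were named after their values were seen. The group, lists and rules were chosen with earlier results of these data known. The lists overlap. Some genes that this rule names are not reported here.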

Additional observations from a re-analysis of the deposited data

Results flagged for a closer look

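Of 141 genes named by rule, 7 (4.96%) had 1 mouse far from the other 6, judged by its gap to the nearest mouse over the whole range. Chance alone gives this for about 1 in 20 genes, so the number of such genes is near that share. Cfd was lowest in replicate 7, at 5.64 on the log2 scale against 9.99 to 12.39 in the others. Gzma (9.53 against 10.37 to 11.00), Nfkbiz (10.38 against 10.96 to 11.10), a regulator of NF-kB target genes, and Xbp1 (12.17 against 12.47 to 12.60) were lowest in replicate 4. Stat4 (5.07 against 5.86 to 6.01), a transducer of interleukin 12 signals, and Fcer1a (0.43 against 2.98 to 4.30) were lowest in replicate 1. Klrc3 was lowest in replicate 7, at -0.06 against 1.98 to 2.83, but this was 1 count against 3 to 8. For Stat4 the values were 25 counts against 63 to 89.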

How the results depend on the processing

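No paired analysis was possible because the replicate numbers only follow the order of the samples. No gene was called for sex under any of the 15 alternatives, with 21 to 53 genes at an unadjusted p under 0.05 (21 without replicate 7, 23 without replicate 5, and 37 with all mice) and a smallest adjusted p of 0.174 to 0.962, and the 6 named differences kept their direction in all 88 refits. These 6 genes were picked for small p-values in these same values, and the ranges of the sexes did not overlap for any of them. Leaving out a mouse could therefore not reverse a direction, so those refits were no test of it. The share of the 5 most abundant genes stayed at 38.4 to 39.4% with each mouse left out. The 20 levels moved by less than their SD in all 160 alternatives. Leaving out 1 mouse or taking the median cannot move a mean further than that, so this was no test of stability. With a minimum of 20 counts instead of 10, 103 genes instead of 39 were low, and 10 genes stayed under 10 counts in every mouse. Leaving out each mouse gave 37 to 47 low genes. The median SD was between 0.23 and 0.32 under all alternatives. The number of genes with at least a 4-fold range was 9, but 14 with equal totals, 32 over all genes with zeros raised to 1 count, and 4 to 9 with each mouse left out, the lowest without replicate 4. Of the 20 most variable genes, 12 were shared with the ranking at equal totals and 15 to 19 with the other rankings. The SDs of the 10 least variable genes grew by over 1.5 times with equal totals, and Itgb1 went from 0.09 to 0.30 with quantile normalization and to 0.05 without replicate 3. Nos2 (0.46 from 0.72) and Gzmb (0.35 from 0.59) varied less without replicate 4. The cause of these changes was not tested.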
